A study of Mus musculus with 8 samples.

Results

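Corticosteroid hormones act on the colon through a pair of nuclear receptors, and a small set of genes carries their signal to the sodium channel of the epithelium. The genes described here are the glucocorticoid receptor Nr3c1, the mineralocorticoid receptor Nr3c2, the steroid-converting enzymes Hsd11b1 and Hsd11b2, the hormone-responsive genes Sgk1, Tsc22d3 and Fkbp5, and the subunit genes Scnn1a, Scnn1b and Scnn1g of the epithelial sodium channel, ENaC. They were taken by name, through the RefSeq accession in each probe set identifier. Of these 10 genes, 9 had a probe set that matched, each 1 probe set, among 14351 genes measured. No probe set matched Nr3c2, so its expression was not analysed here.

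Colon RNA of adult mice was hybridised to Affymetrix arrays, with 3 arrays from mice labelled STAT5b-/-, which lack the transcription factor STAT5b, 2 columns labelled REF from wild type mice, and 3 arrays labelled WT from wild type mice. The labels give STAT5b-/- replicate 1 as male and all the others as female. The labels do not say how the gene was disrupted, which strain was used, how old the mice were beyond adult, what REF stands for, or whether replicates came from different animals. The p-values thus rest on the spread among these arrays alone, and that spread may be technical. The values of both REF columns were the same to within a relative difference of 2.47e-07, below sampling noise, and they entered as 1 sample.

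In the colon, ENaC sits in the apical membrane of surface epithelial cells and lets sodium enter from the lumen. Aldosterone acts on the mineralocorticoid receptor and raises channel activity, in part through the kinase SGK1, which keeps the ubiquitin ligase NEDD4-2 from removing the channel from the membrane. Glucocorticoids can occupy the same receptor, and the enzyme encoded by Hsd11b2 inactivates them in aldosterone target cells, whereas the enzyme encoded by Hsd11b1 regenerates the active hormone.

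Each value is the authors' ratio of an array to the mean of the WT arrays, so a gene's level relative to another gene, and the presence of colon markers as such, cannot be read from it. Array medians lay between 0.968 and 0.988 in STAT5b-/-, at 0.948 in REF and between 0.960 and 1.04 in WT. The disrupted gene itself was not measured lower: Stat5b had ratios of 1.16, 1.17 and 1.26 in STAT5b-/-, 1.18 in REF and 1.08, 0.930 and 0.993 in WT, which is a difference of 0.26 ± 0.12 in log2 (limma adjusted p = 0.175). A probe set outside the disrupted part of a gene checks nothing, so the direction of each difference rests on the labels. In bulk tissue, fewer cells of a type and less RNA per cell cannot be told apart.

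In colon labelled STAT5b-/-, the hormone-responsive genes Sgk1 and Fkbp5 and the glucocorticoid-inactivating enzyme gene Hsd11b2 were higher, at 2.54, 2.44 and 2.43 times WT in that order, and the glucocorticoid-activating enzyme gene Hsd11b1 and the ENaC subunit gene Scnn1a were lower, at 0.531 and 0.656 of WT. The receptor Nr3c1, the hormone-responsive gene Tsc22d3 and the subunit genes Scnn1b and Scnn1g did not pass the test. Thus 3 of the 9 genes were called higher and 2 lower (limma, Benjamini-Hochberg adjusted p under 0.05 over all genes), where 13.3% of all genes were called higher, 8.42% lower and 21.7% in either direction. The groups did not overlap in 7 of the 9 genes and in 41.5% of all genes. The median log2 fold change was 0.32 over the 9 genes and 0.01 over all genes, and the median size of the change without its sign was 0.61 over the 9 genes and 0.30 over all genes.

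These calls depend on how arrays are scaled and on single arrays. With median centring the same 5 genes passed, and 3024 genes were called. With quantile normalization 0 of the 9 genes passed (5 had an unadjusted p under 0.05), 397 genes were called in place of 3119, and 39.8% of calls were higher in place of 61.2%, although all 9 genes kept their direction. Hsd11b1, Sgk1 and Fkbp5 passed whichever of the 6 arrays was left out. Hsd11b2 and Scnn1a still passed when WT replicate 2 was left out but not when any other array was, so that 3 calls remained in place of 5.

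**Figure D1:**
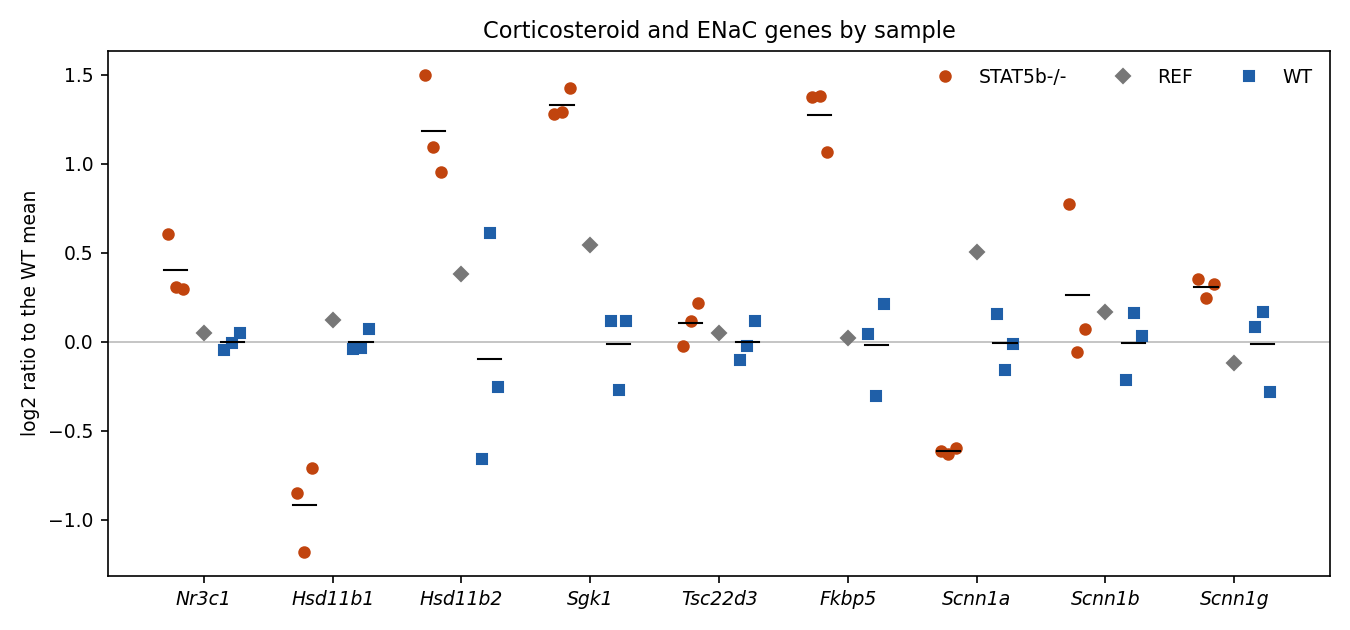
Log2 ratio to the WT mean (vertical axis) of the 9 measured genes in every sample, with STAT5b-/- arrays as circles, the REF sample as a diamond and WT arrays as squares; black lines are means of the 3 arrays of a group. The STAT5b-/- circles of Sgk1, Fkbp5 and Hsd11b2 lie above all WT squares, and those of Hsd11b1 and Scnn1a below them.

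The glucocorticoid receptor Nr3c1, a ligand-activated transcription factor present in most cell types, had ratios of 1.52, 1.24 and 1.23 in STAT5b-/-, 1.03 in REF, and 0.969, 0.996 and 1.04 in WT. All STAT5b-/- values lay above all WT values, and the highest was that of STAT5b-/- replicate 1, the male array. The log2 fold change was 0.40 ± 0.13 (SE, n = 3 arrays a group), with a 95% interval of 0.08 to 0.72, and it did not pass (limma adjusted p = 0.0760). It passed with WT and REF joined as wild type (limma adjusted p = 0.0440). Without the male array the log2 fold change was 0.30 (limma adjusted p = 0.190).

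Among the steroid-converting enzymes, Hsd11b1 turns inactive 11-dehydrocorticosterone back into corticosterone. Its ratios were 0.554, 0.441 and 0.611 in STAT5b-/-, 1.09 in REF, and 0.971, 0.977 and 1.05 in WT. The wild type values were close together and none came near the STAT5b-/- values. Hsd11b1 fell by 0.91 ± 0.15 on the log2 scale (limma adjusted p = 0.00756), a larger change in size than all but 11.2% of genes. With quantile normalization it fell by 0.73 (limma adjusted p = 0.0792). The reaction needs NADPH made inside the endoplasmic reticulum by hexose-6-phosphate dehydrogenase, and the gene of that enzyme, H6pd, had ratios of 0.395, 0.413 and 0.425 in STAT5b-/-, 0.890 in REF, and 0.980, 1.01 and 1.01 in WT. H6pd fell by 1.28 ± 0.11 (limma adjusted p = 0.000720) and passed with quantile normalization as well (limma adjusted p = 0.0180).

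Hsd11b2 carries out the reverse step and shields the mineralocorticoid receptor from glucocorticoids. Its ratios were 2.83, 2.13 and 1.94 in STAT5b-/-, 1.30 in REF, and 0.635, 1.53 and 0.839 in WT. The groups did not overlap, but the WT arrays spread widely, and WT replicate 2 was the highest of them. The log2 fold change was 1.28 ± 0.33 (limma adjusted p = 0.0345), with a 95% interval of 0.50 to 2.07. It was 1.64 without WT replicate 2 (adjusted p = 0.00296). Without any other array the adjusted p was 0.0731 to 0.122, and with quantile normalization it was 0.202.

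Within each array the balance of these enzyme genes was taken as the log2 ratio of Hsd11b1 minus that of Hsd11b2. It was -2.35, -2.27 and -1.66 in STAT5b-/-, -0.26 in REF, and 0.61, -0.64 and 0.33 in WT. The STAT5b-/- values all lay below the wild type values. The mean was -2.10 ± 0.38 in STAT5b-/- and 0.10 ± 0.66 in WT (SD, n = 3 each), and the difference of -2.19 had an exact two-sided permutation p of 0.1, which is the smallest that 3 against 3 arrays can give and also the adjusted p over the 3 such differences examined.

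**Figure D2:**
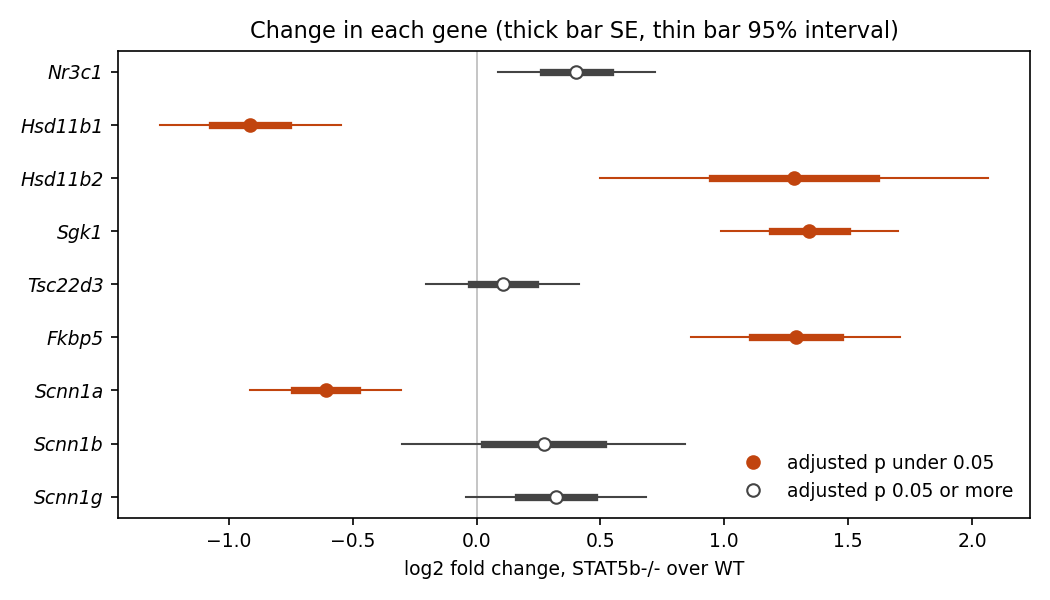
Log2 fold change of STAT5b-/- over WT (horizontal axis) for the 9 genes, with the SE as a thick bar and the 95% interval as a thin bar; filled symbols passed the limma test at an adjusted p under 0.05. The intervals of Tsc22d3, Scnn1b and Scnn1g include 0, and that of Nr3c1 does not although its adjusted p was 0.0760.

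Of the hormone-responsive genes, Sgk1 encodes the kinase that links corticosteroid receptors to ENaC. RefSeq (GRCm38.p6) lists 6 start sites for it, and the 250 bases before each were searched on both strands for the palindromic glucocorticoid response element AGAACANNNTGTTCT, for its separate arms AGAACA and TGTTCT, which overlap it, and for the STAT site TTCNNNGAA, in windows that also take in the 50 bases after the start. The 2 windows shown are the one that holds the full element and the one that holds a STAT site, with all matches in capitals. The first is chr10:21993640-21993889 and the second chr10:21881934-21882183, both on the plus strand.
Sgk1, start site 5 of 6 by coordinate: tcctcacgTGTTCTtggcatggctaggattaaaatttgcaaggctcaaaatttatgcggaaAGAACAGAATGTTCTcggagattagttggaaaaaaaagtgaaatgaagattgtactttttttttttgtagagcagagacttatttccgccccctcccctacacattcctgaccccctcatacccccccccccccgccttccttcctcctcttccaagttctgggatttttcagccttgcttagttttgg
Sgk1, start site 1 of 6 by coordinate: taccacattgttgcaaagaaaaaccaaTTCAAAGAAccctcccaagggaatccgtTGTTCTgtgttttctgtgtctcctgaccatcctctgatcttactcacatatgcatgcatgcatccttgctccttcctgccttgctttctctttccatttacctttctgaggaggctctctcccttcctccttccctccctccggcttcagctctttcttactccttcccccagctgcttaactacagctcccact
The full element, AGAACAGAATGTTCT, lies at chr10:21993701-21993715, at positions -189 to -175 counted from that start. Of 32851 promoter windows in the table, 3 (0.00913%) hold it, 8.30% hold the STAT site and 19.0% hold at least 1 arm. A match describes letters only, and the probe set does not tell which start site was used.

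Sgk1 had ratios of 2.42, 2.45 and 2.69 in STAT5b-/-, 1.46 in REF, and 1.09, 0.829 and 1.09 in WT. The STAT5b-/- arrays were tightly grouped, and REF lay between them and the WT arrays. Sgk1 rose by 1.34 ± 0.15 on the log2 scale (limma adjusted p = 0.00176), which ranked it 427 by p among all genes. REF exceeded WT by 0.55 in log2. With 1 REF sample a test of REF against WT has hardly any power, so it cannot show whether REF matched WT. With quantile normalization the Sgk1 change was 0.84 (adjusted p = 0.144).

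Fkbp5 encodes a co-chaperone of HSP90 that lowers hormone binding by the glucocorticoid receptor and is itself raised by glucocorticoids in many tissues. Its ratios were 2.59, 2.60 and 2.09 in STAT5b-/-, 1.01 in REF, and 1.03, 0.810 and 1.16 in WT. REF fell among the WT arrays, well below the lowest STAT5b-/- value. Fkbp5 rose by 1.29 ± 0.18 (limma adjusted p = 0.00366), and by 0.81 with quantile normalization (adjusted p = 0.196). Bases outside the promoter windows were not searched, and only 3 of 32851 windows hold the full element. An absence thus carries no information on the rise, and the part of any motif was not tested. The 250 bases before the listed start of Fkbp5, at chr17:28486150-28486399 on the minus strand, hold none of the searched motifs and have no capitals.
Fkbp5: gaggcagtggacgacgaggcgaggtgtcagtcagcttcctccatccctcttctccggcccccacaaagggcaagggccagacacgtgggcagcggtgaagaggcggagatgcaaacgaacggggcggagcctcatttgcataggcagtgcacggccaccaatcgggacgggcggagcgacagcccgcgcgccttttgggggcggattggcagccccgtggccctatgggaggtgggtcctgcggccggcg

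Tsc22d3 encodes the leucine zipper protein GILZ, another gene that glucocorticoids raise in many cells. Its ratios were 0.983, 1.08 and 1.16 in STAT5b-/-, 1.04 in REF, and 0.932, 0.983 and 1.08 in WT. The groups overlapped. The log2 fold change was 0.11 ± 0.13 (limma adjusted p = 0.621), with a 95% interval of -0.20 to 0.41, which lies wholly below the estimates for Sgk1 and Fkbp5. Of its 3 listed start sites, the one at chrX:140548572-140548821 on the minus strand is shown because it holds a STAT site, in capitals. Another start site of the gene holds 1 arm of the glucocorticoid element.
Tsc22d3, start site 2 of 3 by coordinate: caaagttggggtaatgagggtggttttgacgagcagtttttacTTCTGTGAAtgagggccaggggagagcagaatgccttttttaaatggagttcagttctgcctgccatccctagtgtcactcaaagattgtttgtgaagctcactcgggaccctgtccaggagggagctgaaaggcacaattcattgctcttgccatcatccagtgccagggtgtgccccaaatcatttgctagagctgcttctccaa

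The genes searched with listed promoter windows were Hsd11b1, Scnn1b, Scnn1g, Sgk1, Fkbp5, Tsc22d3 and Nr3c2, 7 genes with 14 windows. Nr3c1, Hsd11b2 and Scnn1a had no window to search. The full glucocorticoid element was found in 1 of the 14 windows, an arm in 4 and a STAT site in 2. Over all windows the shares were 0.00913%, 19.0% and 8.30%. The matches were all in windows of Sgk1 or Tsc22d3, which have 6 and 3 of the windows, while each other gene has 1. The window of Hsd11b1 is shown as a further example without a match. It lies at chr1:193242361-193242610 on the minus strand.
Hsd11b1: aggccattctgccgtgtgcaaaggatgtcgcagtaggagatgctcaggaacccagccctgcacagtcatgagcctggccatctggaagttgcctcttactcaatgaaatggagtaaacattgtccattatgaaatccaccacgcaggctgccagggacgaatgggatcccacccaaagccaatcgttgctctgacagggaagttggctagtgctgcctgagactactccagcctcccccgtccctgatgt

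The sodium channel is built from alpha, beta and gamma subunits. Scnn1a encodes the alpha subunit, without which the channel barely conducts. Its ratios were 0.653, 0.646 and 0.660 in STAT5b-/-, 1.42 in REF, and 1.11, 0.895 and 0.992 in WT. The STAT5b-/- arrays were nearly identical, with an SD of 0.016 in log2 against 0.157 in WT, and REF was the highest sample. Scnn1a fell by 0.61 ± 0.13 on the log2 scale (limma adjusted p = 0.0167), with a 95% interval of -0.91 to -0.30. Without WT replicate 2 the adjusted p was 0.00883. Without any 1 of the other arrays it was 0.0509 to 0.0690, and with quantile normalization 0.296.

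Scnn1b and Scnn1g encode the beta and gamma subunits and are neighbours on mouse chromosome 7, with 0 protein-coding genes between them in GRCm38.p6. Scnn1b had ratios of 1.71, 0.962 and 1.05 in STAT5b-/-, 1.12 in REF, and 0.861, 1.12 and 1.02 in WT. The high value was that of the male array, and the other STAT5b-/- arrays lay within the WT range. The log2 fold change was 0.27 ± 0.24 (limma adjusted p = 0.484), with a 95% interval of -0.30 to 0.84, and 0.02 without the male array. As the male array is 1 sample, the part of sex in this value cannot be told apart from that of the array.

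Scnn1g had ratios of 1.28, 1.19 and 1.25 in STAT5b-/-, 0.919 in REF, and 1.06, 1.12 and 0.821 in WT. The groups did not overlap, by a narrow margin. The log2 fold change was 0.32 ± 0.15 (limma adjusted p = 0.189), with a 95% interval of -0.04 to 0.68.

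The subunit genes were also compared within each array. The log2 ratio of Scnn1b minus that of Scnn1a within an array was 1.39, 0.57 and 0.67 in STAT5b-/-, -0.34 in REF, and -0.37, 0.32 and 0.04 in WT. That of Scnn1g minus Scnn1a was 0.97, 0.88 and 0.92 in STAT5b-/-, -0.63 in REF, and -0.07, 0.32 and -0.27 in WT. In both, every STAT5b-/- array lay above every wild type sample. The mean differences between STAT5b-/- and WT were 0.88 and 0.93, each with an exact two-sided permutation p of 0.1, the smallest possible (adjusted p = 0.1 over the 3 differences). With REF added to WT as wild type they were 0.96 (exact permutation p = 0.0286) and 1.08 (p = 0.0571). Neither p was adjusted, and 0.0286 is the smallest possible with these samples.

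**Figure D3:**
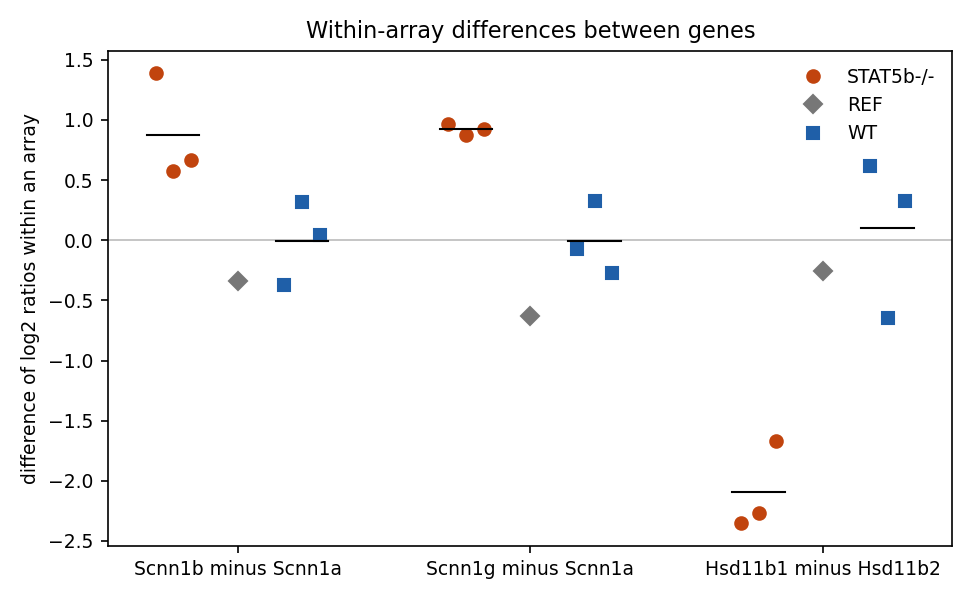
Difference of log2 ratios between 2 genes of the same array (vertical axis) for Scnn1b minus Scnn1a, Scnn1g minus Scnn1a and Hsd11b1 minus Hsd11b2, with STAT5b-/- arrays as circles, REF as a diamond, WT arrays as squares and black lines for means of 3 arrays. The STAT5b-/- circles lie above the REF and WT values for the first 2 differences and below them for the third.

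Genes that act on ENaC or on sodium and potassium transport, a list chosen with earlier results of these data known, had 25 of 27 measured. Of these, 5 were called higher and 3 lower, where 13.3% and 8.42% of all genes were. The list median log2 fold change was 0.17. Nedd4l, which encodes NEDD4-2, the ubiquitin ligase that removes ENaC from the membrane, had ratios of 1.84, 1.98 and 1.77 in STAT5b-/-, 0.986 in REF, and 1.00, 0.899 and 1.10 in WT. It rose by 0.90 ± 0.13 (limma adjusted p = 0.00433). Usp2, a deubiquitinating enzyme that can act on the channel in the opposite sense, rose by 2.10 ± 0.23. Spint1 and Spint2, inhibitors of the membrane serine proteases that cleave ENaC, rose by 0.99 ± 0.19 and 0.67 ± 0.13. The sodium-hydrogen exchanger Slc9a2 rose by 1.14 ± 0.13.

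On the lower side of that list, the colonic proton-potassium pump Atp12a was at the lowest deposited ratio of 0.01 in all 3 STAT5b-/- arrays, against 0.779 in REF and 0.937, 1.54 and 0.523 in WT, and was at least 91.0-fold lower. The calcium-activated potassium channel Kcnn4 fell by 0.82 ± 0.12, and the kinase Stk39, which acts on cation-chloride cotransporters, fell by 0.68 ± 0.16. The sodium pump beta subunit gene Atp1b1 differed from WT by 0.08 ± 0.11 in log2 and was not called (limma adjusted p = 0.695). With quantile normalization 0 genes of this list were called higher and 1 lower, Atp12a (adjusted p = 0.0103). Spint2 did not pass without STAT5b-/- replicate 2 or 3 (0.0576 and 0.0560), and Stk39 did not when any array other than WT replicate 2 was left out (0.0590 to 0.101). Without WT replicate 2 the list had 5 genes called lower.

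Genes raised by glucocorticoids in various tissues went both ways, with 9 of 27 measured called higher and 2 lower, where 13.3% and 8.42% of all genes were, and a median log2 fold change of 0.19. With quantile normalization 0 were called higher and 1 lower, and without STAT5b-/- replicate 2 the counts were 5 and 1. Pdk4, a kinase that restrains glucose oxidation, had ratios of 5.35, 3.65 and 4.92 in STAT5b-/-, 0.673 in REF, and 0.714, 0.985 and 1.30 in WT. It rose by 2.24 ± 0.25 (limma adjusted p = 0.00184). The cell cycle inhibitor Cdkn1a rose by 1.31 ± 0.22, the metallothionein Mt1 by 1.30 ± 0.21, the redox regulator Txnip by 0.89 ± 0.13 and the NF-kB inhibitor Nfkbia by 0.80 ± 0.15. Anxa1, an anti-inflammatory annexin, had ratios of 0.210, 0.224 and 0.316 in STAT5b-/-, 0.899 in REF, and 0.923, 1.18 and 0.894 in WT, and fell by 2.01 ± 0.20 (limma adjusted p = 0.00113). The glutamine synthetase gene Glul fell by 0.59 ± 0.11, and did not pass without STAT5b-/- replicate 2 (adjusted p = 0.0573).

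Several genes often used as readouts of the glucocorticoid receptor were not called, while others of the list were. The clock gene Per1 had a log2 fold change of 0.31 ± 0.30, Zbtb16 0.19 ± 0.19 and Klf9 0.15 ± 0.12 (limma adjusted p = 0.529, 0.551 and 0.447). Dusp1, Errfi1, Mt2 and Foxo1 rose by 0.63 ± 0.18, 0.85 ± 0.20, 1.51 ± 0.34 and 0.88 ± 0.17. These were called higher (limma adjusted p = 0.0462, 0.0252, 0.0219 and 0.0120). All genes of both groups were named after their values were seen. Of the genes named from the list by the rule only Anxa1 passed with quantile normalization (adjusted p = 0.0120).

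Steroid synthesis and metabolism genes, 27 of 27 measured, had 9 called higher and 2 lower, where 13.3% and 8.42% of all genes were. The list median log2 fold change was 0.00. Cyp3a13, a cytochrome that oxidises steroids and drugs, rose by 2.74 ± 0.40, and the efflux pump gene Abcb1a, whose product exports corticosteroids among other compounds, by 1.79 ± 0.16. Hsd17b2, which inactivates sex steroids, rose by 1.65 ± 0.19, the cytochrome reductase Por by 1.61 ± 0.15 and the peroxisomal enzyme gene Hsd17b4 by 1.20 ± 0.13. Beside H6pd, Nr5a2, a nuclear receptor that drives glucocorticoid synthesis in mouse intestine, fell by 0.55 ± 0.16 (limma adjusted p = 0.0490). That call was marginal: the adjusted p was 0.0511 with robust variance, 0.0541 with each probe set by itself, 0.0675 with median centring and 0.307 with quantile normalization, and 0.0550 to 0.152 when any array other than STAT5b-/- replicate 1 was left out. The genes of corticosterone synthesis Cyp11a1 and Cyp11b1 had log2 fold changes of -0.17 ± 0.20 and -0.19 ± 0.49, neither called. With quantile normalization 1 gene of the list was called higher, Por, and 1 lower, H6pd.

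Chaperones and coregulators of the steroid receptors had a median log2 fold change of 0.02. Nearly all were uncalled, with 0 of 22 measured called higher and 1 lower, where 13.3% and 8.42% of all genes were. The exception was Bag1, a co-chaperone that binds HSP70, which fell by 0.47 ± 0.12 (limma adjusted p = 0.0335). Its call was lost with median centring (adjusted p = 0.0505), with quantile normalization (0.268) and when any array other than WT replicate 2 was left out (0.0670 to 0.110), which leaves 0 genes of the list called lower. Hsp90ab1 and Fkbp4, parts of the unliganded receptor complex, had log2 fold changes of -0.20 ± 0.13 and 0.19 ± 0.15. Among 8 other steroid-related receptors 2 were higher and 0 lower, with a median log2 fold change of -0.17: the xenobiotic receptor Nr1i2 rose by 1.11 ± 0.21 and the vitamin D receptor Vdr by 0.73 ± 0.12. With quantile normalization 0 of the 8 were called (adjusted p = 0.395 for Nr1i2 and 0.103 for Vdr), and without STAT5b-/- replicate 2 Nr1i2 did not pass (0.0532). The estrogen receptor Esr1 was not called.

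**Figure D4:**
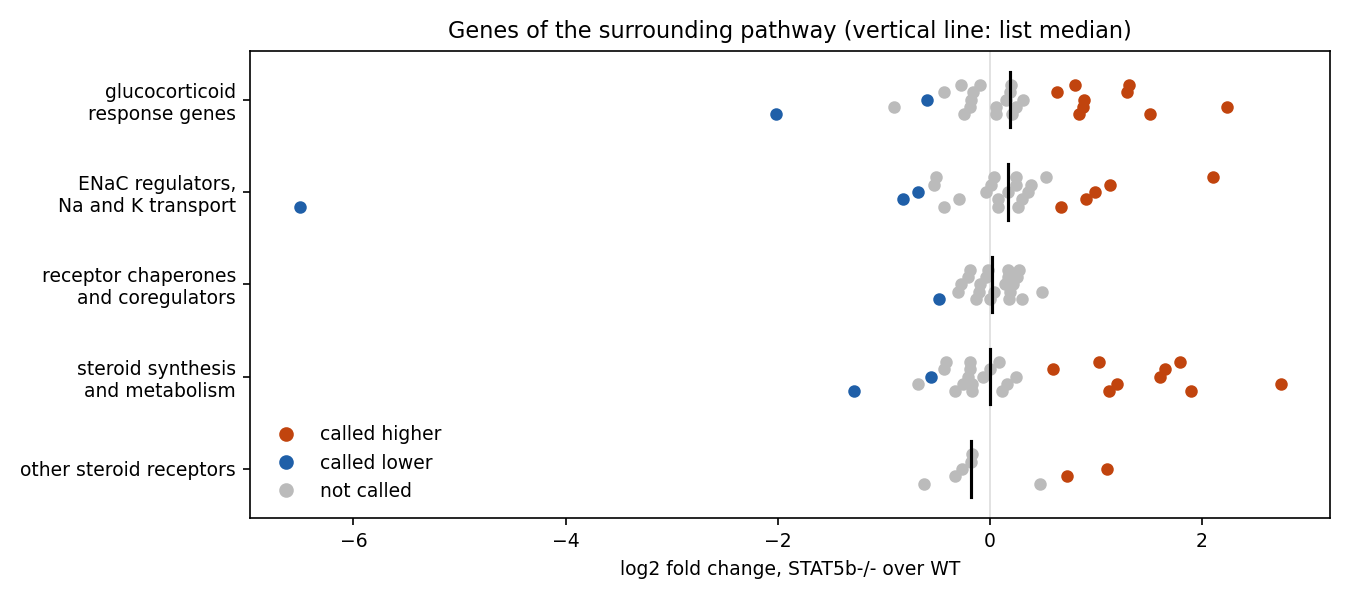
Log2 fold change of STAT5b-/- over WT (horizontal axis) for each measured gene of 5 lists around the corticosteroid pathway, 1 point a gene, coloured by whether limma called it higher, called it lower or did not call it, with the list median as a vertical line. The list medians lie between -0.17 and 0.19, and the point at -6.51 is Atp12a, a lower bound in size.

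Markers of several cell types also differed between the groups, and their part in the results was not tested. For comparison with the marker and Hox counts below, 13.3% of all genes were called higher and 8.42% lower. Surface colonocyte markers, of the cells that carry ENaC, were called higher in 7 of 10 and lower in 0, and their summed ratio was 20.9 to 22.8 in STAT5b-/-, 10.7 in REF and 9.68 to 10.2 in WT. Scnn1a was lower where most of these markers were higher. Car4 of the same list had ratios of 0.658, 0.617 and 0.588 in STAT5b-/- and was not called (limma adjusted p = 0.123). General epithelial markers were called higher in 1 of 6 (Vil1) and lower in 1 (Krt18), with summed ratios of 6.94 to 7.33 in STAT5b-/-, 6.49 in REF and 5.87 to 6.07 in WT.

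Markers of stromal, goblet and immune cells were compared as well, and whether any of them bears on Hsd11b1 was not tested. Fibroblast markers were lower in 6 of 7, with summed ratios of 3.57 to 4.33 in STAT5b-/-, 6.34 in REF and 6.17 to 7.43 in WT. Macrophage markers were lower in 5 of 5, with 1.62 to 2.30 in STAT5b-/-, 4.70 in REF and 4.28 to 6.27 in WT. Goblet cell markers were lower in 3 of 5, with 2.34 to 2.85 in STAT5b-/-, 4.45 in REF and 4.56 to 5.37 in WT. Lymphocyte markers were higher in 2 of 5 and lower in 1, with 4.41 to 5.12 in STAT5b-/-, 3.69 in REF and 4.28 to 5.56 in WT. Smooth muscle markers were called in 0 of 6, with 4.56 to 6.70 in STAT5b-/-, 5.20 in REF and 5.43 to 6.78 in WT. No marker was at the lowest deposited ratio in any sample.

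Genes that mark position along the gut also differed between the groups. Hox genes of groups 11 to 13 were higher in 1 of 7 and lower in 2, with summed ratios of 5.43 to 5.50 in STAT5b-/-, 5.78 in REF and 5.83 to 9.07 in WT. The sum hides Hoxb13, which had ratios of 0.0128, 0.0455 and 0.0574 in STAT5b-/-, 1.12 in REF, and 1.14, 1.24 and 0.627 in WT. Hoxb13 fell by 4.89 ± 0.58 in log2 (limma adjusted p = 0.00206). Hox genes of groups 4 to 8 were higher in 5 of 11 and lower in 0, with 40.5 to 45.9 in STAT5b-/-, 11.4 in REF and 10.5 to 11.7 in WT. Their median log2 ratio was -0.05, 0.68 and 0.59 in STAT5b-/-, so that a few genes carry the sum and the median of the male array lay within the WT range. Hoxb6 and Hoxb8 rose most, by 3.94 ± 0.29 and 3.69 ± 0.12 (limma adjusted p = 0.000402 and 2.41e-05). ENaC is known to be regulated differently along the colon, and whether the sampled segment differed between groups was not tested.

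**Figure D5:**
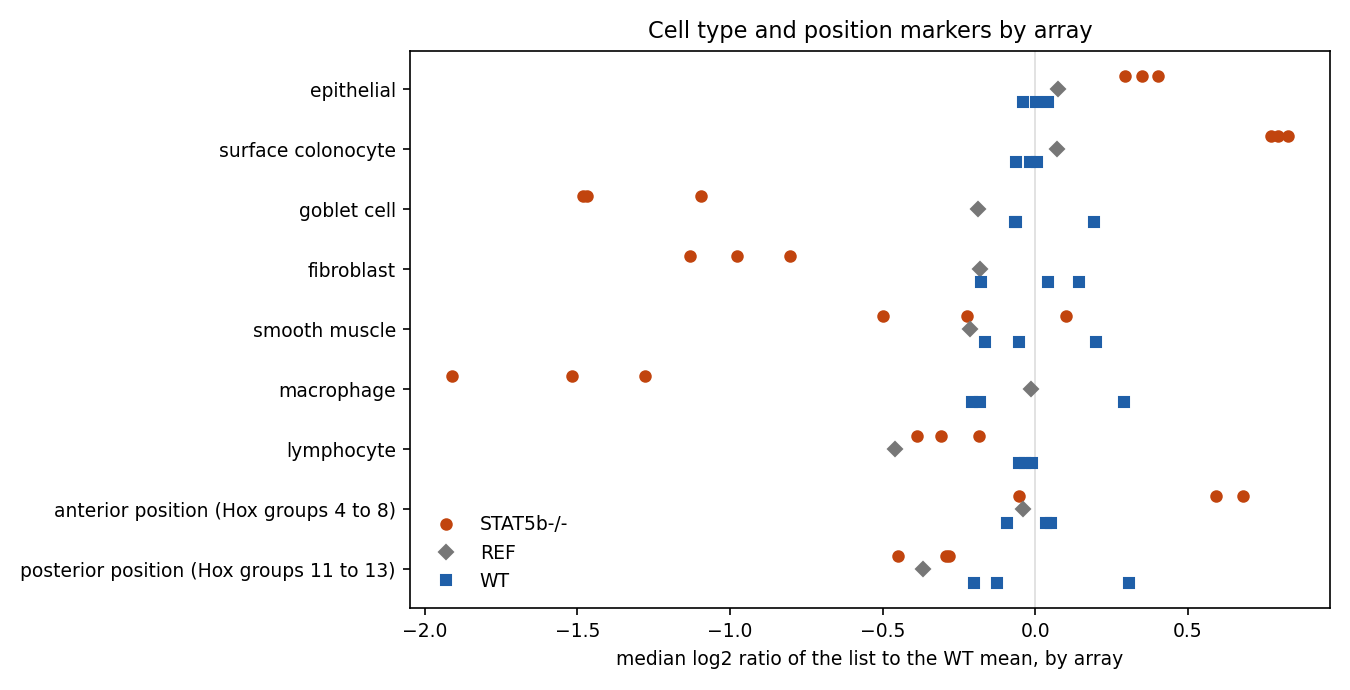
Median log2 ratio to the WT mean (horizontal axis) of each list of cell type or position markers in every sample, with STAT5b-/- arrays as circles, REF as a diamond and WT arrays as squares. The surface colonocyte medians of STAT5b-/- lie between 0.77 and 0.83, and the macrophage medians between -1.91 and -1.28.

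The genes whose log2 ratios most resembled those of the called genes were found by Pearson correlation over the 7 samples, a measure that follows the difference between groups and is given as a description. For Sgk1 they were Plekhb2 (r = 0.998), the ketone body enzyme gene Bdh1 (0.996) and Abhd17a (0.996). For Fkbp5 they were Specc1l, Psme3ip1 and Vsig2 (0.997, 0.997 and 0.995). For Hsd11b1 they were the metalloprotease gene Adam19, Lrig1 and the plasma cell gene Mzb1 (0.994, 0.992 and 0.990). For Hsd11b2 they were Irf2bpl, Gpr17 and Arf5 (0.988, 0.987 and 0.980), and for Scnn1a they were the mitosis gene Hmmr, the cohesin gene Smc1a and Fam160b1 (0.991, 0.990 and 0.988). Of the genes not called, Nr3c1 was most like Sesn2, Slc22a5 and Farp2 (0.995, 0.994 and 0.990), Tsc22d3 most like Cxcr3, Selenoo and Mapk8ip2 (0.987, 0.955 and 0.948), Scnn1b most like Tcam1, 1700020D05Rik and Mpg (0.984, 0.984 and 0.983) and Scnn1g most like Rdh9, Mrpl33 and Cbll1 (0.988, 0.984 and 0.973). Among the 9 genes themselves, Sgk1 and Fkbp5 had r = 0.938, Hsd11b1 and Fkbp5 -0.942, and Scnn1a and Scnn1g -0.780 over the same 7 samples. No rule set these pairs in advance. Other pairs were also high, such as Nr3c1 and Fkbp5 (0.905) and Hsd11b1 and Scnn1a (0.890), and some were low, such as Tsc22d3 and Scnn1g (0.005).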

How the data were processed

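Colon RNA of mice was measured on Affymetrix arrays, and the deposited table holds 26180 probe sets in 8 columns, of which both REF columns hold the same values, leaving 7 samples. RMA, without a version, is named in the submitters' processing notes. Array type and genome build are not given in the sources used here. The values are a ratio as the authors deposited them: linear, with a WT mean of 1 in every probe set to within 1.87e-07 and a lowest value of 0.01. The log2 SD of an array was 0.289 to 0.363 in WT, 0.402 in REF and 0.646 to 0.737 in STAT5b-/-. WT arrays are part of the mean they were divided by, and the effect of that on these spreads was not tested. No depth or detection calls were used, and the number of arrays limits the precision.

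Accessions were matched without version to the RefSeq table of GRCm38.p6: 15228 probe sets matched 1 symbol and 10952 none, giving 14351 genes. Ratios were log2-transformed with no pseudocount, and probe sets of a gene were averaged. STAT5b-/- and WT were compared with limma 3.58.1 in R 4.3.3 over 6 arrays, and REF as 1 sample against 3 WT arrays, adjusting p by Benjamini-Hochberg across the 14351 genes, and calling those under 0.05. Fold changes are ± SE of the fit. The test was checked on simulated data. Within-array differences used an exact permutation test. The planned difference of Nr3c1 minus Nr3c2 was not run, as no probe set matched Nr3c2. The 10 genes, the 5 pathway lists and the marker lists were chosen with earlier results of these data known. Of each pathway list, up to 5 genes called in each direction with the smallest p were named, and for each measured gene the 3 most correlated genes. Other genes of the pathway and marker lists were named after their values were seen. Promoter windows were taken from a RefSeq table of GRCm38.p6. Alternatives were quantile normalization, median centring, WT with REF as wild type, another probe set rule, robust variance, the replicate number as a block, all samples in one fit, single probe sets, and leaving out each array.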

Additional observations from a re-analysis of the deposited data

How the results depend on the processing

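All 9 genes kept the direction of their log2 fold change under all 14 alternatives run. So did the 25 called genes that the rule named from the pathway lists, in each setting where they were fitted. Other list genes named beside them were not followed. Quantile normalization called 397 genes, 158 higher and 239 lower, and 0 of the 9 genes. That setting gives all arrays 1 distribution, although the WT arrays were narrower than the STAT5b-/- arrays before it, and the cause of the lost calls was not tested. It left 4 of those 25 genes called. Testing each probe set by itself called 5099 probe sets, 2911 higher and 2188 lower, out of the larger number tested. Leaving out 1 array at a time called 1716 to 3551 genes, 1053 to 2192 higher and 663 to 1359 lower, and 3 to 5 of the 9 genes. Without an array the difference of Scnn1b minus Scnn1a was 0.63 to 1.04, that of Scnn1g minus Scnn1a 0.80 to 1.10 and that of Hsd11b1 minus Hsd11b2 -2.57 to -1.94. With WT and REF together, Scnn1b minus Scnn1a was 0.96 and Hsd11b1 minus Hsd11b2 -2.11 (exact permutation p = 0.0286 each, unadjusted and the smallest possible with these samples). That setting takes REF as a further wild type replicate, which the labels do not establish. REF against WT called 0 genes in every setting run, a test with hardly any power at 1 sample, and fitting all samples at once repeated the reported values, since 1 REF sample adds no spread.

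Same-numbered arrays did not deviate together (correlations of -0.19 to 0.04 over genes), and a pair with different numbers reached 0.22. With 3 arrays a group, this check cannot show whether the numbers pair the samples. With the replicate block 2039 genes were called, 1238 higher and 801 lower, and 3 of the 9 genes, as Hsd11b2 and Scnn1a had adjusted p of 0.0668 and 0.0584. Of the 25 genes, Glul, Bag1 and Nr5a2 lost their calls (0.0571, 0.103 and 0.111).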
